A study of Mus musculus with 6 samples.

Results

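Kupffer cell markers are genes that mark the resident macrophages of the liver. The 10 examined here were Adgre1, Timd4, Folr2, C1qa, C1qb, C1qc, Clec4f, Marco, Vsig4 and Cd5l. Each was measured by the probe set that the platform annotation gives its symbol, and by the one with the highest mean where there were several. Every one of the 10 had 1 probe set, so 10 of the 65956 probe sets on the array are described. The livers came from male mice aged 8 weeks, with 1 array per mouse. The mothers of 3 mice had been given inulin, a fermentable plant fibre, and their group is titled HFD-inulin. The mothers of the other 3 mice had been on a high-fat diet (HFD), and their group is titled HFD. Both titles hold HFD, so whether the inulin-treated mothers also ate the high-fat diet is not settled by the labels. The labels give no strain, no diet of the offspring and no litter. The p-values therefore cover the spread among these 6 samples, some of which may be technical or shared by littermates.

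Kupffer cells line the sinusoids, where they clear bacteria, worn red cells and dying cells from portal blood. They are seeded before birth, renew themselves in place and take their identity from signals of neighbouring endothelial, stellate and hepatocyte cells. When they are lost, monocytes from the blood can refill the niche, and such newcomers acquire TIM4, the product of Timd4, slowly. Whole liver RNA comes mostly from hepatocytes, so in these bulk samples fewer Kupffer cells and less of an mRNA per cell cannot be told apart.

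The mean signal of 8 of the 10 markers was lower in the HFD-inulin livers, but no marker passed the test. The differences were largest in Adgre1, Timd4 and Folr2, with ratios of HFD-inulin to HFD between 0.803 and 0.826. Clec4f, Vsig4 and C1qb, also carried by Kupffer cells, had nearly equal means and a narrow spread. Marco varied more than any other marker between mice and did not follow the groups. Values are the authors' deposited log2 signals, listed for each group in the order of replicates 1, 2 and 3, and a difference of 1 is a factor of 2 in signal. The groups were compared with limma over all probe sets, with Benjamini-Hochberg adjustment and a threshold of 0.05. A probe set's level cannot be set against that of another gene, so only differences are compared between genes. The median probe set serves only as a rough mark of low signal.

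The largest source of variation among the arrays crossed the groups. A first principal component with 53.1% of the variance placed HFD-inulin arrays 1 and 2 with HFD array 1 on a side called low here, and HFD-inulin array 3 with HFD arrays 2 and 3 on a side called high. Each side therefore holds both groups, and results are given within each side as well. Array medians ran from 1.17 to 1.26, and the probe set of each of the 10 markers was above the median probe set (1.22) in its mean, the lowest at 3.24. Over all probe sets 0 passed the adjusted threshold in limma, and 3399 had an unadjusted p under 0.05, 1660 higher and 1739 lower. The share of those that were higher was 48.8%, and 68.3% after centring each array on its median. A robust, trended prior in limma gave 4 calls, none of them a Kupffer cell marker.

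Adgre1 encodes F4/80, an adhesion receptor long used to identify mouse macrophages. Its log2 signal was 3.79, 3.52 and 3.88 in the HFD-inulin mice and 3.93, 4.08 and 4.12 in the HFD mice. The groups did not overlap, although the nearest arrays were close. The group means were 3.73 ± 0.18 (SD, n = 3) and 4.05 ± 0.10, a log2 difference of -0.32 (SE 0.11, 95% interval -0.58 to -0.05). As a ratio this was 0.803 (95% interval 0.670 to 0.963). The unadjusted p in limma was 0.0247 and the adjusted p was 0.902, so the difference did not pass the threshold. It was -0.28 within the low side and -0.23 within the high side, lower in both. Its range was -0.39 to -0.21 when each array was left out in turn.

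Timd4 encodes a receptor for phosphatidylserine, the lipid that dying cells expose, and is characteristic of long-resident Kupffer cells. It measured 3.08, 2.93 and 3.25 in the HFD-inulin mice and 3.17, 3.50 and 3.53 in the HFD mice. HFD array 1 lay below HFD-inulin array 3, so the groups overlapped. The difference was -0.32 (SE 0.13, 95% interval -0.62 to -0.01; limma unadjusted p = 0.0451, adjusted p = 0.902). Within the low and high sides it was -0.16 and -0.27. Timd4 also differed between the sides themselves, at 0.30 higher on the high side with group in the fit (limma unadjusted p = 0.00818, adjusted p = 0.173). The sides were taken from these same arrays, so that p-value is a description and not an independent test.

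Folr2 encodes folate receptor beta, a surface marker of resident macrophages in many tissues. It measured 5.20, 4.95 and 5.38 in the HFD-inulin mice, against 5.37, 5.42 and 5.57 in the HFD mice. HFD-inulin array 3 reached just above the lowest HFD array. The difference was -0.28 (SE 0.12, 95% interval -0.57 to 0.02; limma unadjusted p = 0.0603, adjusted p = 0.902). It was -0.30 within the low side and -0.11 within the high side, and -0.16 without HFD-inulin array 2, the lowest array for all of Adgre1, Timd4 and Folr2.

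**Figure D1:**
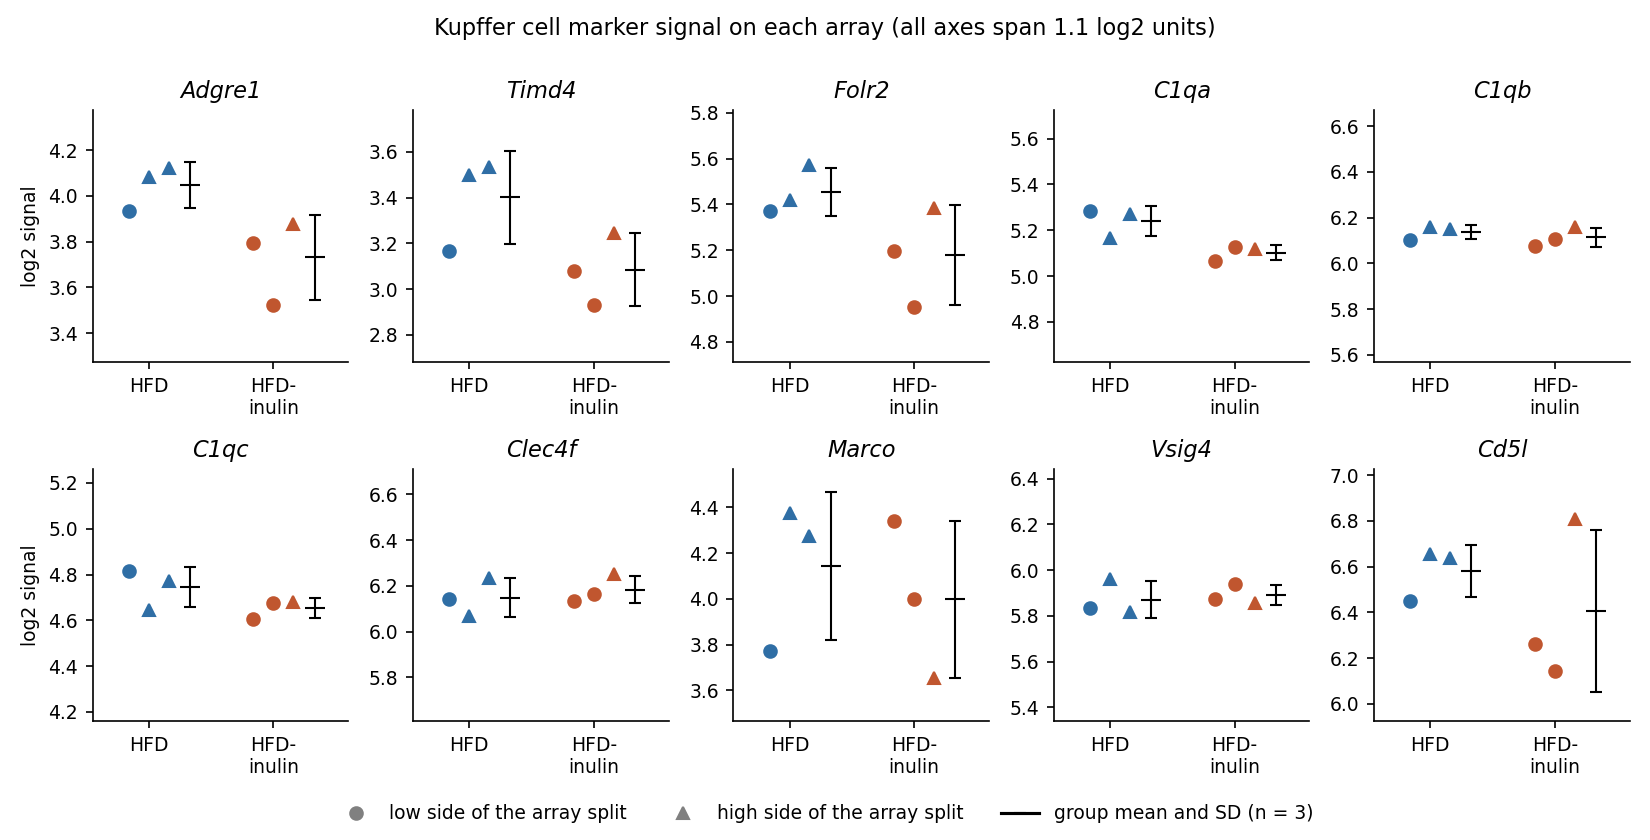
Deposited log2 signal (vertical axes) of the 10 markers on each of the 6 arrays, with circles for the low and triangles for the high side of the first principal component and black bars for the mean and SD of 3 mice. Every axis spans the same number of log2 units, so the tight points of C1qb and the wide ones of Marco can be compared, and Adgre1 and C1qa are the markers whose groups do not overlap.

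C1qa, C1qb and C1qc encode the A, B and C chains of C1q, which recognises antibody complexes and dying cells and starts the classical complement pathway. Macrophages are their main source. C1qa measured 5.06, 5.13 and 5.12 in the HFD-inulin mice and 5.28, 5.16 and 5.27 in the HFD mice. The groups did not overlap, but HFD-inulin array 2 and HFD array 2 lay close together. The difference was -0.14 (SE 0.06, 95% interval -0.29 to 0.02; limma unadjusted p = 0.0729, adjusted p = 0.902), and it was -0.19 and -0.10 within the low and high sides. C1qc measured 4.60, 4.68 and 4.68 against 4.81, 4.65 and 4.77, and its groups overlapped. Its difference was -0.09 (95% interval -0.26 to 0.08; limma adjusted p = 0.911).

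C1qb was the steadiest marker. All 6 arrays lay between 6.08 and 6.16, with an HFD-inulin mean of 6.11 ± 0.04 (SD, n = 3) and an HFD mean of 6.14 ± 0.03. The difference was -0.02 (95% interval -0.17 to 0.12; limma adjusted p = 0.966), and it turned to 0.01 after median centring. The interval allows ratios from 0.891 to 1.09. It overlaps the interval of Adgre1, 0.670 to 0.963, and these markers were not tested against each other. Its width depends on the setting, since the SE was 0.06 here and 0.10 with the trended and robust prior. C1qa and C1qc followed each other over the 6 arrays (Pearson r 0.940, a description with no test), and neither followed C1qb as closely.

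The genes of the 3 C1q chains are neighbours on mouse chromosome 4. Sequences just before the start of transcription are shown for C1qb and C1qc, as neighbours that were unlike each other over the arrays, for Vsig4, a steady marker, and for Timd4, a marker with one of the largest differences. Each is the 250 bases before the start, taken from RefSeq promoters of build GRCm38.p6. They lie at chr4:136886201-136886450 (- strand), chr4:136892915-136893164 (- strand), chrX:96293439-96293688 (- strand) and chr11:46810549-46810798 (+ strand). Capitals mark GAGGAA, or its reverse complement, the core bound by PU.1, the factor that specifies macrophages, and Timd4 holds none.
C1qb: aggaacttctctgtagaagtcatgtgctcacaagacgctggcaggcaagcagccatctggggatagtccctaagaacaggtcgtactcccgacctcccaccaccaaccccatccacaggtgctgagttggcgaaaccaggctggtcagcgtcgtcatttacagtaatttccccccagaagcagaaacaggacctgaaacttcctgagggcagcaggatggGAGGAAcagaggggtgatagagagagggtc
C1qc: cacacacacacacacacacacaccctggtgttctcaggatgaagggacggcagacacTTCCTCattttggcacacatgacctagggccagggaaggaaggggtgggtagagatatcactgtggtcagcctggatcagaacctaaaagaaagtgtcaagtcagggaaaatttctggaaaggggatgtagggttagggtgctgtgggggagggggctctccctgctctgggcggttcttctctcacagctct
Vsig4: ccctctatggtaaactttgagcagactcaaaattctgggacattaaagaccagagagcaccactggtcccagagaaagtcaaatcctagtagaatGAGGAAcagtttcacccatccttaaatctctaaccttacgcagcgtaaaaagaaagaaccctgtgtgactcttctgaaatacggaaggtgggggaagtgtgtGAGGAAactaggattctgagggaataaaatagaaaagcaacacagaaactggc
Timd4: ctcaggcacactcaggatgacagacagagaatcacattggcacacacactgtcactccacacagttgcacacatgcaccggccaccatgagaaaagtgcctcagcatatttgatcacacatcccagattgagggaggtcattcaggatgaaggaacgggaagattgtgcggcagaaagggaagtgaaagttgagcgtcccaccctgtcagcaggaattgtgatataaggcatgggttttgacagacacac

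The RefSeq table held 9 promoters for 8 of the 10 markers, 2 of them for Folr2. GAGGAA was present on either strand in 5 of these 9, those of Marco, Cd5l, C1qb, C1qc and Vsig4, and in 23.3% of all 32851 promoters cut to the same length. Vsig4 had 2 matches, 155 and 53 bases before the start. C1qb had 1 at 30 bases and C1qc 1 at 193 bases. TGCTGA, the core of MAF factor sites, was in 6 of the 9 and in 16.1% of all promoters, with 2 matches each in Timd4 and Cd5l. AGGTCA, the core of many nuclear receptor sites, was in 3 of the 9 (C1qc, Clec4f and Timd4) and in 14.0% of all. TGANTCA, the AP-1 type site, was in 1 of the 9, a Folr2 promoter, and in 6.75% of all. The motifs were searched on both strands and do not overlap by their letters in the sequences shown. A match is a description of letters and shows no binding.

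Clec4f and Vsig4 were the markers with a higher mean in HFD-inulin, both by very little. Clec4f encodes a C-type lectin that in mice is nearly restricted to Kupffer cells. It measured 6.13, 6.17 and 6.25 in the HFD-inulin mice and 6.14, 6.07 and 6.23 in the HFD mice. The arrays of both groups were interleaved. The difference was 0.03 (SE 0.07, 95% interval -0.14 to 0.21; limma adjusted p = 0.960), and it turned to -0.02 after quantile normalization. Vsig4 encodes CRIg, a complement receptor that captures C3b-coated bacteria from blood. Its arrays lay between 5.82 and 5.96, with a difference of 0.02 (95% interval -0.14 to 0.18; limma adjusted p = 0.976) that turned to -0.03 after quantile normalization. For both genes the lower end of the interval lay above the estimates for Adgre1, Timd4 and Folr2. The intervals of Adgre1, Timd4 and Folr2 reach up to -0.05, -0.01 and 0.02, so they overlap those of both genes. The differences of markers were not tested against each other.

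Marco encodes a scavenger receptor with a collagen-like stalk that binds bacteria and particles. It had the widest range of the 10, with 4.34, 3.9995 and 3.66 in the HFD-inulin mice and 3.77, 4.38 and 4.28 in the HFD mice. The lowest 2 arrays came from different groups, as did the highest 2. The difference was -0.14 (SE 0.22, 95% interval -0.67 to 0.38; limma adjusted p = 0.949). It was 0.40 within the low side and -0.67 within the high side, so the sides ran in opposite directions. Without HFD-inulin array 3 it was 0.03.

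Cd5l encodes AIM, a secreted protein of the scavenger receptor cysteine-rich family and a target of LXR in macrophages. It measured 6.26, 6.14 and 6.81 in the HFD-inulin mice and 6.45, 6.66 and 6.64 in the HFD mice. HFD-inulin array 3 was the highest of the 6, and the other 2 HFD-inulin arrays were the lowest. The difference was -0.18 (SE 0.18, 95% interval -0.60 to 0.24; limma adjusted p = 0.927). It was -0.25 within the low side and 0.16 within the high side. Without HFD-inulin array 3 it was -0.38 (limma unadjusted p = 0.00824, adjusted p = 0.265). Cd5l differed between the sides by 0.40 with group in the fit (limma unadjusted p = 0.00909, adjusted p = 0.184). Among the markers, Cd5l and Timd4 were the 2 with an unadjusted p under 0.05 for the sides, in both cases higher on the high side, where 8.08% of all probe sets were called the same way. For that contrast 2.63% of all probe sets passed the adjusted threshold and 0 of the 10 markers did. Since the sides were taken from these same arrays, the p-values of that contrast are not an independent test. With group in the fit, the estimate was higher on the high side for 8 of 10 markers and for 52.0% of all probe sets. For the interaction of group and side, 2 markers, Marco and Cd5l, had an unadjusted p under 0.05 in limma, against 6.21% of all probe sets, and neither passed the adjusted threshold (adjusted p = 0.743 and 0.791). That test was added after the data were seen, with sides taken from the same arrays and 1 array in one group of each side.

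**Figure D2:**
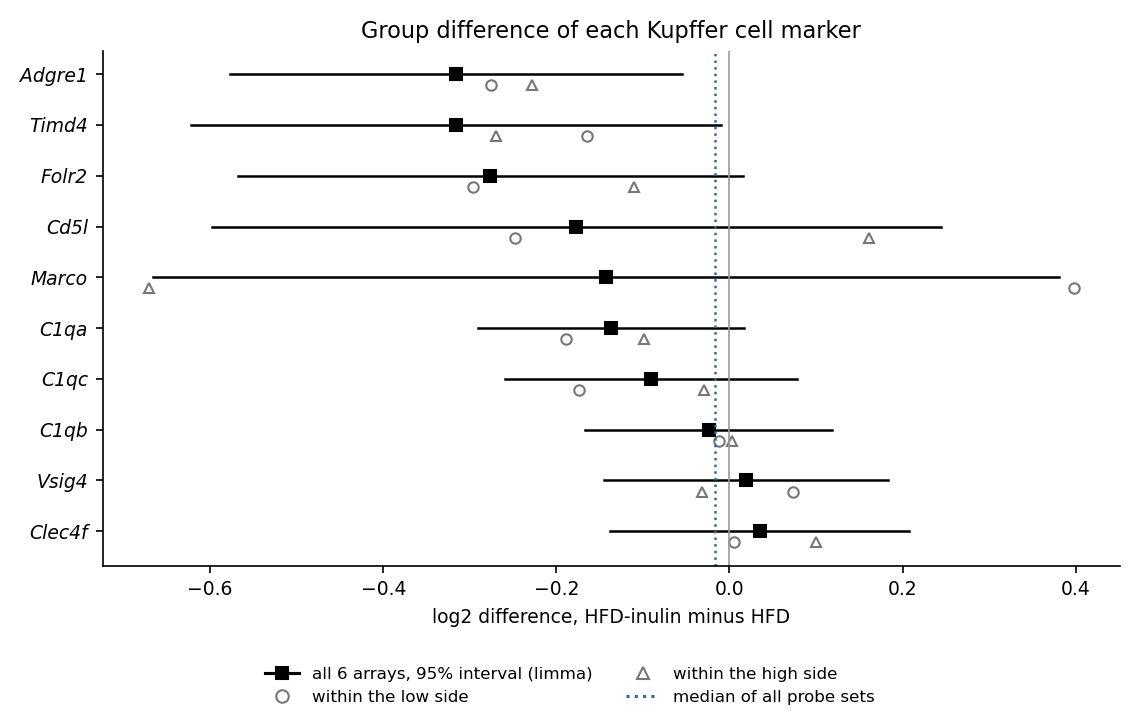
Log2 difference, HFD-inulin minus HFD (horizontal axis), of each marker over all 6 arrays (squares, with 95% limma intervals) and within the low (circles) and high (triangles) side of the array split. The intervals of Adgre1 and Timd4 lie below 0, those of the other 8 span 0, and the open symbols of Marco lie at 0.40 and -0.67.

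Counted together, 2 of the 10 markers (Adgre1 and Timd4) had an unadjusted p under 0.05 in limma, both lower. Over all probe sets 5.15% had such a p, 2.64% with a lower and 2.52% with a higher mean in HFD-inulin. The count of 2 became 4 without HFD-inulin array 3 (Adgre1, Timd4, Folr2 and Cd5l), 1 without HFD-inulin array 1, and 0 on omitting HFD-inulin array 2, HFD array 2 or HFD array 3. The share of all probe sets moved as well, to 9.89% where the count was 4, 3.98% where it was 1, and 3.92%, 3.18% and 3.36% in turn for the 3 omissions that gave 0. At a share of 4.67% of all probe sets, the count was 3 after quantile normalization, with Folr2 added. It was 0 within the low side, where the share of all probe sets was 5.64%, and 2 within the high side (Timd4 and Marco), where that share was 6.58%. With the side as a block the count stayed at 2, where the share of all probe sets was 5.19%. The difference was then -0.25 for Adgre1 (limma unadjusted p = 0.0345, adjusted p = 0.926) and -0.22 for Timd4 (limma unadjusted p = 0.0305, adjusted p = 0.926). The means of 8 of the 10 were lower, against 56.5% of all probe sets, and those of 2 were higher, against 43.5%. After median centring 7 of 10 were lower, and after quantile normalization 10 of 10. The share of all probe sets with a higher mean was 56.2% after median centring and 50.9% after quantile normalization. Both rescalings shift all probe sets, so counts after them are to be read beside these shares. The median difference was -0.14 over the 10 markers and -0.02 over all probe sets. The groups did not overlap in 2 markers, Adgre1 and C1qa, both lower, and 6.02% of all probe sets were apart in that direction, 4.32% in the other and 10.3% in either. Within the low side 7 of 10 were lower, within the high side 7 of 10, and 5 were lower in both: Adgre1, Timd4, Folr2, C1qa and C1qc. Several markers share a pattern over the arrays, as given next, so these counts are not separate observations.

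Over the 6 arrays the markers fell into patterns. Adgre1, Folr2 and Timd4 were lowest on HFD-inulin array 2 and highest on HFD array 3. Their pairwise Pearson r ran from 0.905 to 0.965. Only the C1qa and C1qc pair was as close among the 45 pairs. Clec4f and Vsig4 were the most opposed pair, at -0.66, within narrow ranges. Each r describes 6 arrays that share the side split and carries no test. Averaged over the 10 markers after centring each gene on its own mean, the signal was -0.06, -0.15 and 0.00 in the HFD-inulin mice and -0.02, 0.10 and 0.13 in the HFD mice.

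**Figure D3:**
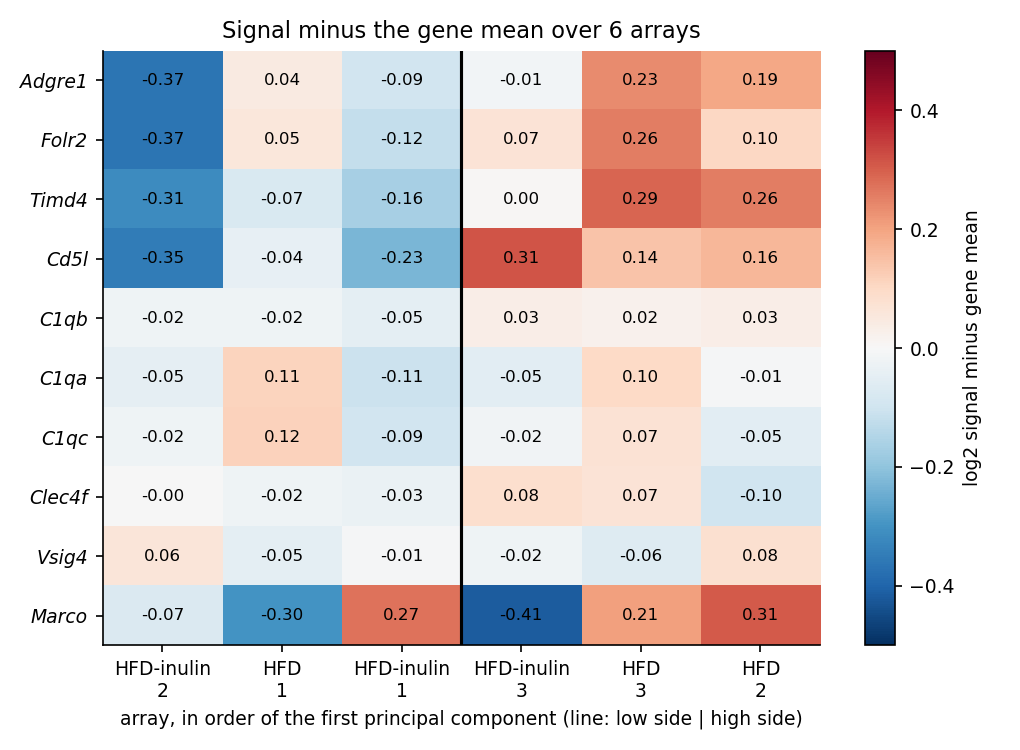
Log2 signal minus the gene's mean over 6 arrays (colour and printed values) for the 10 markers (rows), with arrays in the order of the first principal component and a line between its low and high sides. Adgre1, Folr2, Timd4 and Cd5l are lowest on HFD-inulin array 2, and Marco is lowest on HFD-inulin array 3.

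Outside the markers, 4552 genes reached the median probe set in their mean and varied by an SD of at least 0.2, and 2.17% of these reached an r of 0.9 with that average. The 8 closest were Mir6415 (Pearson r 0.992 over 6 arrays), Gm10061 (0.988), Gm25085 and Gm23305 (both 0.987), 4933402N22Rik (0.971), Gm26097 (0.967), Gm21655 (0.966) and Gm8897 (0.964). After removing the mean of each side the r of the 8 ran from 0.908 to 0.983. Gm25085 and Gm23305 have the same values on every array, so they count as 1 profile. Their signal ran from 0.72 to 1.80 and that of Gm8897 from 1.13 to 1.70, around the median probe set (1.22). The array medians, like the marker average, were lowest on HFD-inulin array 2 (1.17) and highest on HFD array 3 (1.26). Whether the likeness follows the signal of the whole array was not tested.

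Other genes of the Kupffer cell programme were spread around 0. Of 15 measured, 8 had a higher and 7 a lower mean, against 43.5% and 56.5% of all probe sets. Their median difference was 0.00, and 1 had an unadjusted p under 0.05 in limma, against 5.15% of all probe sets. That gene was Slc40a1, which encodes ferroportin, the iron exporter through which macrophages return iron from red cells. It measured 5.79, 5.30 and 6.17 in the HFD-inulin mice and 6.22, 6.46 and 6.23 in the HFD mice, a difference of -0.55 (SE 0.21, limma adjusted p = 0.902). Hepatocytes and other cells carry it too. Id3, a transcriptional regulator needed for Kupffer cells, had a difference of 0.25 (95% interval -0.03 to 0.53), and Siglec1, a sialic acid receptor, -0.14. Cdh5 differed by -0.16 and is also counted among the sinusoidal endothelial genes below. Nr1h3, which encodes LXR alpha and also works in hepatocytes, measured 5.53 ± 0.06 (SD, n = 3) and 5.51 ± 0.06, a difference of 0.02. Spic, a factor of iron-recycling macrophages, lay below the median probe set at 1.11 and 1.13. The haemoglobin-haptoglobin receptor gene Cd163 was at 4.71 on HFD-inulin array 2 and between 3.53 and 3.74 on the others, a difference of 0.40 (limma adjusted p = 0.909).

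Genes shared by macrophages in general had 15 of 24 lower means, against 56.5% of all probe sets, and a median of -0.09. Within the high side 10 of 24 were lower and the median was 0.01, and without HFD-inulin array 2 the median was -0.04. Of these, 3 had an unadjusted p under 0.05 in limma in the lower direction, against 2.64% of all probe sets. They were Maf (-0.23), a factor of resident macrophages, Ptprc (-0.24), the pan-leukocyte gene for CD45, and Laptm5 (-0.19), a lysosomal membrane protein. Cd14, a co-receptor for bacterial lipopolysaccharide, went the other way, with 2.49, 2.66 and 2.60 in the HFD-inulin mice and 2.19, 2.24 and 2.42 in the HFD mice (0.30, limma unadjusted p = 0.0110). Csf1r, the receptor on which Kupffer cell survival depends, differed by -0.24 (95% interval -0.51 to 0.03), Lyz2, lysozyme, by -0.33 (-0.74 to 0.08) and Spi1, which encodes PU.1, by -0.12. Cd68, an endosomal macrophage marker, differed by -0.01 (-0.30 to 0.27). The adjusted p of each list member in this paragraph was at least 0.902 in limma.

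Of 11 genes of monocytes and monocyte-derived cells measured, 5 were below the median probe set, including Ccr2 (0.77 and 0.82 in the HFD-inulin and HFD means), the chemokine receptor of classical monocytes. Their list mean ran from 1.28 to 1.51 in HFD-inulin and from 1.39 to 1.45 in HFD. Of the 11, 0 had an unadjusted p under 0.05 in limma, against 5.15% of all probe sets. Lower means were found in 6 of 11 over all arrays and in 2 of 11 within the high side. Those with the smallest p were Cx3cr1 (-0.21), Plac8 (0.08), Itgam (0.09) and Itgax (-0.06), and Ly6c2 differed by -0.10. Genes of lipid-associated macrophages, which gather in fatty liver, had 5 of 9 higher means and a median of 0.02, with 0 under that p. Trem2, their defining receptor, measured 1.71 ± 0.03 (SD, n = 3) and 1.70 ± 0.10. Fabp5 (0.43) and Cd9 (0.20) had the smallest p of that list with Atp6v0d2 (-0.21) and Lpl (-0.09).

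Of 15 products of activated macrophages, 9 were below the median probe set, Il6 and Il10 among them. Against 56.5% of all probe sets, 10 had a lower mean (8 after median centring or quantile normalization), with a median of -0.04. Among the 6 at or above the median probe set, 4 had a higher and 2 a lower mean, with a median of 0.08. The groups did not overlap in Il6, lower, and in Il1b, higher, where 10.3% of all probe sets were apart in either direction. In limma 1 gene had an unadjusted p under 0.05, against 5.15% of all probe sets. Il1b, the gene of interleukin-1 beta, measured 1.97, 2.36 and 2.21 in the HFD-inulin mice and 1.59, 1.76 and 1.54 in the HFD mice. The groups did not overlap, and the difference was 0.55 (SE 0.12, 95% interval 0.27 to 0.83; limma unadjusted p = 0.00245, adjusted p = 0.902). The other 3 with the smallest p were Ccl4 (-0.08), Tlr2 (0.13) and Arg1 (0.15), and Arg1 in liver is mainly a hepatocyte enzyme of the urea cycle. Tnf differed by 0.03.

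Signals of the Kupffer cell niche, listed with receptors and transmitters of such signals, had 12 of 13 lower means, against 56.5% of all probe sets. Their median was -0.08. After median centring 10 of the 13 were lower, while 56.2% of all probe sets were higher. Within the high side 7 of 13 were lower (median -0.02). Without HFD-inulin array 2 the median was -0.05 and without HFD array 2 it was -0.13. In limma 2 of the 13 had an unadjusted p under 0.05, both lower, against 2.64% of all probe sets in that direction. The groups were apart in 3 of the 13, all lower, against 6.02% of all probe sets. Tgfb1, the gene of transforming growth factor beta 1, measured 3.60, 3.59 and 3.80 in the HFD-inulin mice and 3.96, 3.89 and 3.94 in the HFD mice. Its groups were apart, with a difference of -0.26 (SE 0.08, limma unadjusted p = 0.0133, adjusted p = 0.902). Bmpr2, a receptor for bone morphogenetic proteins, differed by -0.20 (limma unadjusted p = 0.0199, adjusted p = 0.902), with its groups apart as well. Smad4 (-0.09) and Notch2 (-0.19), which transmit such signals, followed by p. The macrophage growth factors Csf1 and Il34 differed by -0.04 and -0.05, the Notch ligand gene Dll4 by -0.05 and Gdf2, which encodes BMP9 of stellate cells, by 0.00.

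The partners of C1q and of the Vsig4 ligand C3 had 6 of 10 lower means (5 of 10 after median centring or quantile normalization), against 56.5% of all probe sets. The median of the list was -0.05, and 0 had an unadjusted p under 0.05 in limma, against 5.15% of all probe sets. C1ra (-0.29) and C1s1 (-0.35), the proteases that join C1q in the C1 complex and are made mainly by hepatocytes, had the smallest p with C2 (-0.27) and Cr1l (0.21). Relatives of the markers by family or function had 8 of 15 lower means and a median of 0.00. Higher means numbered 11 of 15 after median centring and 10 of 15 after quantile normalization, against 56.2% and 50.9% of all probe sets. In that list 1 gene, the endothelial scavenger receptor Stab2 (-0.28), had an unadjusted p under 0.05 in limma, against 5.15% of all probe sets. Clec4g (0.23), Timd2 (0.11) and Scara5 (0.54) followed. Some list genes were not analysed here.

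Markers of other liver cells are given beside these values. Whether they follow the Kupffer cell markers over the arrays, and their part in the results, was not tested. Against 56.5% of all probe sets, sinusoidal endothelial genes had 9 of 12 lower means, with a median of -0.11. Leaving out HFD-inulin array 2 gave a median of -0.02, leaving out HFD-inulin array 1 gave -0.06 and leaving out HFD array 1 gave -0.04, and within the high side 6 of 12 were lower (-0.01). After median centring 7 of 12 were lower. Their list means ran from 4.53 to 4.62 in HFD-inulin and 4.58 to 4.78 in HFD. Stab2 measured 4.88 ± 0.07 (SD, n = 3) against 5.16 ± 0.09 (limma unadjusted p = 0.00846, adjusted p = 0.902). Hepatocyte genes had 7 of 9 lower means and a median of -0.17. Omitting HFD-inulin array 1, 2 or 3 gave medians of -0.11, -0.09 and -0.26, and omitting HFD array 2 gave -0.11. Within the high side 5 of 9 were lower and the median was 0.00. Their list means ran from 9.15 to 9.45 in HFD-inulin and from 9.49 to 9.53 in HFD. Hnf4a, a master regulator of hepatocyte genes, differed by -0.60 (limma adjusted p = 0.390) and Cps1, a urea cycle enzyme, by -0.68 (adjusted p = 0.902), both with an unadjusted p under 0.05. Of all probe sets, 2.64% had such a p with a lower mean. Alb, albumin, differed by -0.10. Stellate cell genes had 6 of 10 lower means (median -0.02; 5 of 10 after either rescaling), lymphocyte genes 9 of 11 (-0.07) with 4 of 11 below the median probe set, and cholangiocyte genes 2 of 5 (0.04). Neutrophil genes had 6 of 12 lower means (0.00), and 3 of 12 after either rescaling. Median centring left 56.2% and quantile normalization 50.9% of all probe sets with a higher mean, and 9 of 12 neutrophil genes in each case. Their list mean ran from 1.33 to 1.67 in HFD-inulin and from 1.31 to 1.38 in HFD, with S100a8 at 2.33 on HFD-inulin array 2 and no higher than 0.91 on the others. Erythroid markers were left with 1 measured gene, Alas2, at -0.06. HFD-inulin array 2 was also the lowest for Adgre1, Timd4, Folr2 and Cd5l, and without it their differences were -0.21, -0.24, -0.16 and -0.05.

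**Figure D4:**
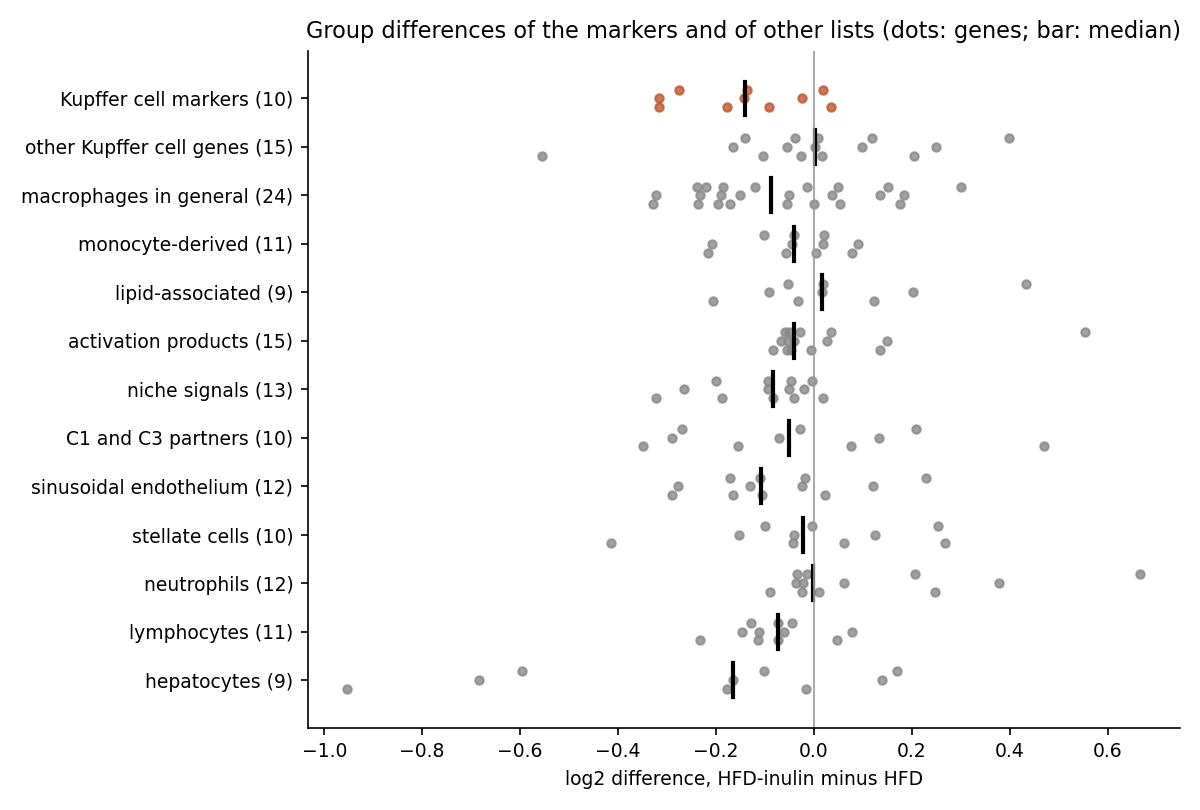
Log2 difference, HFD-inulin minus HFD (horizontal axis), of every measured gene (dots) in the Kupffer cell markers and in 12 other lists, with the number of genes in parentheses and a bar at each median. The markers have a median of -0.14 and no dot beyond -0.32, general macrophage genes -0.09, other Kupffer cell genes 0.00 and hepatocyte genes -0.17.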

How the data were processed

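TRIzol RNA from the livers of 6 mice was biotin-labelled and measured on 1 array each, per the labels. The deposited values are log2 signals that the authors made with Affymetrix Expression Console, version 1.0 according to the submitters' processing notes. How probes were summarized and background was corrected is not given in the sources used here, nor is a build. Base 2 is inferred from the range of the values, -0.13 to 12.1. No detection calls were used, and 3 arrays a group set the precision.

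Symbols of the platform annotation were updated through a RefSeq gene table (GRCm38.p6), which named 31438 probe sets with 1 gene (30792 genes), left 1312 with several unnamed and 33206 with none. HFD-inulin was compared with HFD by limma 3.58.1 in R 4.3.3 (lmFit, eBayes, two-sided, no covariate, no filter). P-values were adjusted by Benjamini-Hochberg over 65956 probe sets at 0.05. On simulated arrays limma recovered 9, 34, 47 and 48 of 50 probe sets planted at log2 changes of 0.5, 1, 2 and 3, with 5 false calls. The simulated noise was drawn separately for each probe set and lacks the split of the real arrays. These counts are therefore not the power of the real comparison. The markers and gene lists were chosen with earlier results of these data known. All 10 markers were named; other lists give up to 4 genes of smallest p plus set genes such as Csf1r, Cd68, Trem2 and Alb. Alternatives were another prior, testing only brighter probe sets, median centring, quantile normalization, each array left out, the replicate number or the array side as a block, each side alone, and other probe set choices.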

Additional observations from a re-analysis of the deposited data

Results flagged for a closer look

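The group difference of Marco ran in opposite directions on the sides of the array split, which is what singled it out. The difference within the high side minus that within the low side was -1.07 (SE 0.23, limma unadjusted p = 0.00517, adjusted p = 0.743 over all probe sets), from 0.40 within the low side and -0.67 within the high side. For Cd5l the same quantity was 0.41 (SE 0.15, limma unadjusted p = 0.0425, adjusted p = 0.791), from -0.25 and 0.16. Over all probe sets 6.21% had an unadjusted p under 0.05 for this quantity. The sides were defined from the data and are not groups of the study. Each side has 1 array in one of the groups, and this test was added after the data were seen.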

How the results depend on the processing

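No marker passed the adjusted threshold under any setting run, and Adgre1, Timd4, Folr2, C1qa and C1qc had a lower mean in HFD-inulin under all of them. The probe sets passing the adjusted threshold numbered 0 in limma under all settings but the trended and robust prior, which gave 4. An unadjusted p under 0.05 was reached by 2100 to 6525 probe sets when each array was left out. It was reached by 1873 (5.68%) when only probe sets at or above the median were tested, since fewer were tested. Markers with an unadjusted p under 0.05 numbered 1 under that filter, 0 within the low side and 0 to 4 with an array left out. Markers with a higher mean numbered 0 after quantile normalization and 1 to 3 with an array left out. The median difference of the markers ran from -0.18 to -0.10 with an array left out and from -0.18 to -0.07 over all settings.

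Directions turned for 5 markers, and the cause was not tested. After quantile normalization Clec4f was at -0.021 and Vsig4 at -0.0328, and after median centring C1qb was at 0.0079. Within the low side Marco was at 0.40, and within the high side C1qb was at 0.0025, Vsig4 at -0.0321 and Cd5l at 0.16. With an array left out Vsig4 ran from -0.0071 to 0.0651, Clec4f from -0.0062 to 0.0777 and Marco from -0.33 to 0.0287. The replicate number as a block gave 0 probe sets past the adjusted threshold and 3349 (5.08%) at an unadjusted p under 0.05. It and quantile normalization each gave 3 markers under that p, since Folr2 had an unadjusted limma p of 0.0315 and 0.0320. The labels do not say whether replicate numbers pair the mice. Deviations of arrays with the same number correlated at 0.26, -0.28 and 0.40, and 2 of 6 arrays correlated best with their own number. With 3 arrays a group and a side split that crosses the groups, these values cannot show or exclude a pairing. Every marker has 1 probe set, so other choices of probe set gave the same values.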

Other observations

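Several genes of the lists were high on HFD-inulin array 2 alone, and were chosen after their values were seen. Scara5, a ferritin-binding scavenger receptor, was at 2.99 there and between 1.27 and 1.51 on the other 5 arrays. Krt19, a keratin of bile duct cells, was at 3.04 there and between 1.82 and 1.93 elsewhere. Cd163 was at 4.71 and S100a8 at 2.33 on the same array, as given above.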
